A study of Mus musculus with 12 samples.

Results

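Dbp, Tef, Hlf and Nfil3 encode the basic leucine zipper factors that carry circadian timing from the clock to its output genes. They were taken from the count tables by their symbols, and all 4 were found among 23420 gene symbols. The livers came from wild type and Siah2 KO mice of both sexes on a C57BL/6 background, collected at zeitgeber time (ZT) 10, late in the light phase of a light-dark cycle with lights off at ZT12, at about 20 weeks of age and on normal chow. The wild type and Siah2 KO lines were related lines founded by homozygous offspring of heterozygous parents, and SIAH2, the ubiquitin ligase lost in the knockouts, was deleted in the germline and so not in hepatocytes alone. There were 3 mice in each of 4 groups, wild type females (WTF), Siah2 KO females (KOF), wild type males (WTM) and Siah2 KO males (KOM). The paper describes single livers, the labels describe RNA pooled over 3 mice, and the paper's description was followed, so p-values measure the spread between these libraries.

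DBP, TEF and HLF are the PAR bZIP proteins, named for a region rich in proline and acidic residues beside the basic leucine zipper. They bind as dimers to a DNA element called the D-box and activate transcription there. NFIL3, also called E4BP4, lacks the PAR region, binds the same element and represses. In the liver, Dbp is a direct target of CLOCK and BMAL1 acting through E-boxes, Nfil3 is repressed by the REV-ERB nuclear receptors through ROR elements, and the PAR bZIP proteins control D-box genes of the clock, such as Per3, and genes of drug, heme and lipid metabolism.

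Promoters of the members and of D-box target genes were searched to show what these elements look like. The sequences are from RefSeq on GRCm38, the build that the submitters' notes name as mm10, and each covers 250 bases before to 50 bases after a transcription start. Both strands were searched for CACGTG as the E-box, for TTATGTAA or TTACGTAA as the D-box and for the consensus of the ROR element, and no motif overlapped another. Of 32851 promoters in the table, 7.15% held the E-box, 1.06% the D-box and 0.435% the ROR element. All 4 members were matched, with 5 promoters. Tef has 2 annotated starts, and each of its promoters held 1 E-box, shown in capitals, with its first base at −127 and −138 from the start.

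Tef, upstream start, chr15:81802423-81802722, plus strand: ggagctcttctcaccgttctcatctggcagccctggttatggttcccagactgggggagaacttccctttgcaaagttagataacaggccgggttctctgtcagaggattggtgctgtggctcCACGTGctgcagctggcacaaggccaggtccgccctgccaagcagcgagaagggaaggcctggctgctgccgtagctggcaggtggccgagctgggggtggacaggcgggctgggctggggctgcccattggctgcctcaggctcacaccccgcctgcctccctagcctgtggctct
Tef, downstream start, chr15:81811164-81811463, plus strand: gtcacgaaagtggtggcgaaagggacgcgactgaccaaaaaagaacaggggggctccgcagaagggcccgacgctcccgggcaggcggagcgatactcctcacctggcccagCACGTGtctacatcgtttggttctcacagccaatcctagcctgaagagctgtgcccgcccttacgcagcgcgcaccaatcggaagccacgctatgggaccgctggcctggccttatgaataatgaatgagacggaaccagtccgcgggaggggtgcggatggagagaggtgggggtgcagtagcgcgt

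The promoters of Dbp, Hlf and Nfil3 held none of these letters, which says only that they are not in this window. Of 8 D-box clock genes listed for context, 6 were matched to a promoter, and among these Per3 held the D-box, at −205 and −158. The albumin gene held the D-box at −223 and, read on the opposite strand, at −204. DBP is named for a D site of the albumin promoter (D site albumin promoter binding protein). The search for exact letters did not locate that site, and these matches are not put forward as it. At least 2 D-box matches were found in 8 of the 32851 promoters. The D-boxes are in capitals below, and a match is a description of letters, not a mapped binding site.

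Per3, chr4:151044616-151044915, minus strand: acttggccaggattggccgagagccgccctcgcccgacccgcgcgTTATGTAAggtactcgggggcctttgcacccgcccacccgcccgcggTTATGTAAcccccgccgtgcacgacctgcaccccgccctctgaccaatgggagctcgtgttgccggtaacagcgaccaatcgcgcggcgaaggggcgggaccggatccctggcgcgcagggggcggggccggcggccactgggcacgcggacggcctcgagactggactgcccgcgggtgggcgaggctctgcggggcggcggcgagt
Alb, chr5:90460620-90460919, plus strand: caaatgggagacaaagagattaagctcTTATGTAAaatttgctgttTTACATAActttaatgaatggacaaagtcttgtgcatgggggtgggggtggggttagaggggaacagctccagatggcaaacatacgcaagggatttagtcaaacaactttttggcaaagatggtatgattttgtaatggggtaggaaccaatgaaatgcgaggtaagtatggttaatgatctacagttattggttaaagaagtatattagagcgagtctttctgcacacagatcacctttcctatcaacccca

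Each library was read by QuantSeq, which primes on the poly(A) tail and gives reads near the 3′ end of a transcript, so that levels of different genes can be set side by side without dividing by length. Values are in CPM, read counts relative to the library total as scaled by the TMM method. The libraries held from 1293688 to 4056144 reads on genes. Siah2 itself was 13.5 ± 2.93 CPM (SD, n = 3 mice) in WTF, 10.7 ± 1.57 CPM in KOF, 21.7 ± 5.15 CPM in WTM and 13.9 ± 4.05 CPM in KOM, and it is not known here whether its 3′ tag lies inside the deleted part. Wild type female 1091 stood apart from the other females, and edgeR's common biological coefficient of variation in females was 0.286 with this mouse and 0.191 without it, against 0.189 in males. The summed level of 5 hepatocyte markers was between 19919 and 36843 CPM in the 12 mice, and Plin1 of fat cells and Cpa1, Amy2a5 and Ctrb1 of acinar cells were at 0 in every group. Other genes of these lists had reads. The 5 acinar markers summed to between 10.8 CPM (in KOF) and 57.2 CPM (in KOM), and the 4 fat markers to between 47.2 and 119 CPM (both in WTM).

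The members differed widely in CPM, in the order Tef, Hlf, Nfil3 and Dbp in each of the 12 mice. Tef averaged 439 CPM over the 12 mice, above 98.1% of the 17874 genes with a read, from 569 to 2275 reads per mouse. Hlf averaged 166 CPM, above 94.7% of genes, from 166 to 669 reads. The level of Tef was between 1.79 and 4.42 times that of Hlf within a mouse. Nfil3 averaged 7.35 CPM from 8 to 41 reads per mouse, and counting error alone gives 22% at its mean count. Dbp averaged 1.59 CPM, with 50 reads in all 12 mice together, from 0 to 11 per mouse. Its last exon lies inside an exon of Sphk2 on the other strand, as given below. Whether the count of Dbp reflects its RNA level was not tested. In KOF 1104 the gap between Nfil3 and Dbp was 11 against 7 reads, which is within counting error, so the order of the lowest pair is not firm in every mouse. Tef, Hlf and Nfil3 passed the filter on low counts in each comparison, and Dbp did in none.

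**Figure D1:**
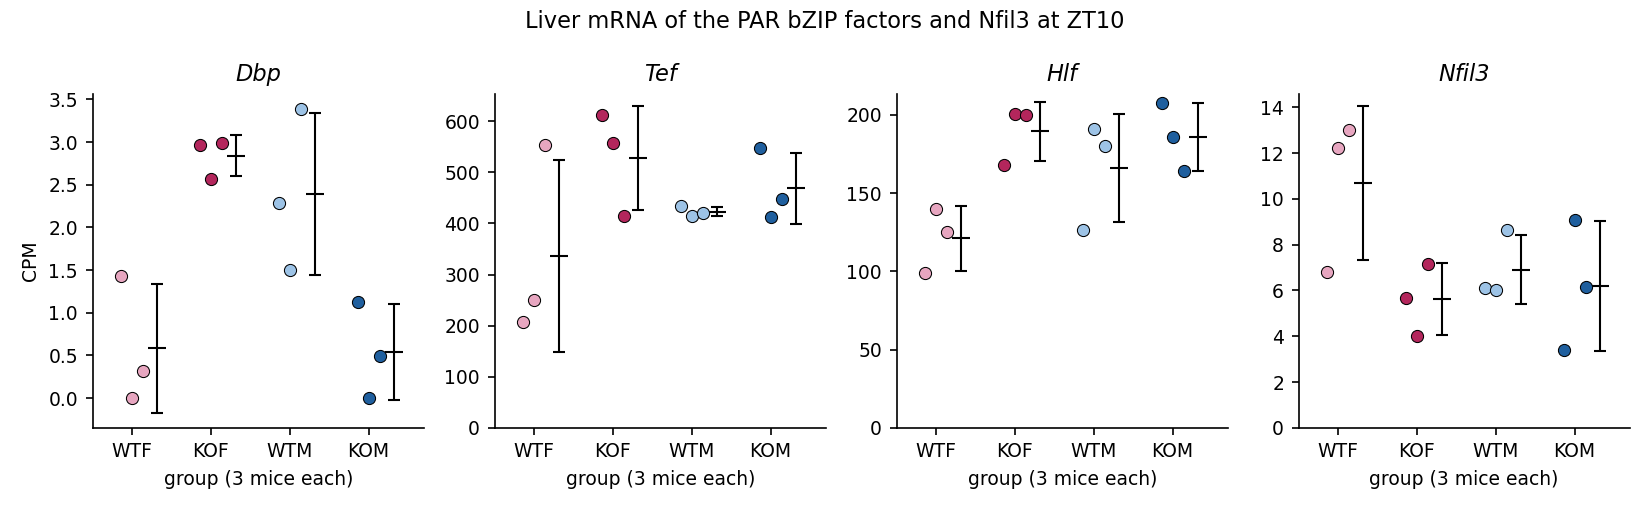
CPM of Dbp, Tef, Hlf and Nfil3 in each mouse (points, 3 per group) with the mean and SD of the group (bars), each gene on its own vertical axis. Hlf lay between 99.0 and 140 CPM in WTF and between 168 and 201 CPM in KOF, Tef in WTF ranged from 206 to 553 CPM, and Dbp was at most 3.39 CPM.

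Hlf, a PAR bZIP activator first known from a leukemia fusion, was higher in each Siah2 KO female than in each wild type female, although its difference missed the threshold over all genes. The gene lies on the minus strand at chr11:90336535-90390917 of GRCm38. Its level was 99.0, 140 and 125 CPM in WTF 1089, 1090 and 1091, and 168, 201 and 200 CPM in KOF 1070, 1104 and 1105. The highest wild type female was below the lowest Siah2 KO female. Such separation in either direction was seen for 23.4% of the 9465 genes tested in females. On the log2 scale Hlf differed by 0.63 (standard error 0.23), a ratio of 1.55, with an unadjusted p of 0.0197 and an adjusted p of 0.216 over all genes by the quasi-likelihood test of edgeR. DESeq2 gave an adjusted p of 0.183. Voom weights for library quality were the alternative under which Hlf passed, with an adjusted p of 0.0358 by limma.

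In males the levels of Hlf overlapped between genotypes. They were 126, 191 and 180 CPM in WTM 1055, 1086 and 1087 and 208, 186 and 164 CPM in KOM 1075, 1076 and 1081. WTM 1055 was the lowest of the 6 males and near the level of the wild type females. Its fitted log2 change was 0.14 (standard error 0.18, adjusted p = 0.9999 from edgeR), and it was −0.0010 without WTM 1055. The female change exceeded the male change by 0.48 on the log2 scale (standard error 0.29, adjusted p = 0.504), so a different response of the sexes was not shown for Hlf.

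Tef, the member with the most reads, had a similar fitted change in females as Hlf, but a wider spread. It lies on the plus strand at chr15:81802673-81826863. Its level was 206, 250 and 553 CPM in WTF 1089, 1090 and 1091, and 613, 557 and 415 CPM in KOF 1070, 1104 and 1105. The lower pair of wild type females lay below every Siah2 KO female, and 1091 lay among them. The fitted log2 change was 0.64 (standard error 0.37), with an unadjusted p of 0.112 and an adjusted p of 0.441 by edgeR. Without WTF 1091 it was 1.21 (standard error 0.21) and passed, with an adjusted p of 0.00822, and edgeR then called 9.64% of the genes tested in females. The biological coefficient of variation of Tef fell from 0.332 to 0.179 when that mouse was left out.

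Between the male genotypes the levels of Tef overlapped, and only the wild type males were nearly constant. The levels were 433, 415 and 421 CPM in WTM 1055, 1086 and 1087, and 547, 413 and 447 CPM in KOM 1075, 1076 and 1081. The wild type males had the smallest spread of any group for this gene, with an SD of 9.36 CPM against 69.6 CPM in KOM and 189 CPM in WTF. The log2 change fitted in males was 0.14 (standard error 0.15, adjusted p = 0.9999 from edgeR). Set against the females, the change there was larger by 0.50 (standard error 0.42, adjusted p = 0.652), and without WTF 1091 it was 1.07, with an adjusted p of 0.0245.

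Nfil3, the repressor of the set, had the opposite sign to the activators in females. It lies on the minus strand at chr13:52967209-52982878. Its level was 6.81, 12.2 and 13.01 CPM in WTF 1089, 1090 and 1091, and 5.66, 4.03 and 7.18 CPM in KOF 1070, 1104 and 1105. The groups overlapped through WTF 1089 and KOF 1105, which differed by less than 1 CPM. The counts were 101 reads over the 3 wild type and 44 reads over the 3 Siah2 KO females. This is a log2 change of −0.97 (standard error 0.39), a ratio of 0.511, with an unadjusted p of 0.0327 and an adjusted p of 0.268 by edgeR. DESeq2 gave an adjusted p of 0.382.

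In males Nfil3 showed no separation. The levels were 6.09, 6.00 and 8.63 CPM in WTM 1055, 1086 and 1087, and 3.38, 9.07 and 6.14 CPM in KOM 1075, 1076 and 1081. The lowest and the highest male both belonged to the Siah2 KO group. The fitted value was −0.22 on the log2 scale (standard error 0.42, adjusted p = 0.9999 from edgeR), and its sign turned, to 0.080 without KOM 1075 and to 0.021 without WTM 1087. The female change less the male change was −0.75 (standard error 0.58, adjusted p = 0.622).

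Of the 3 members tested, edgeR called 0 in females, where it called 0.0% of all genes, and 0 in males, where it likewise called 0.0%. In females 2 of the 3, Hlf and Nfil3, had an unadjusted p under 0.05, against 15.6% of all genes tested. In males 0 of the 3 did, against 4.05% of all genes. DESeq2 and limma-voom without weights also called 0 of the 3 in either sex, where DESeq2 called 1.76% of genes in females and 0.037% in males.

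**Figure D2:**
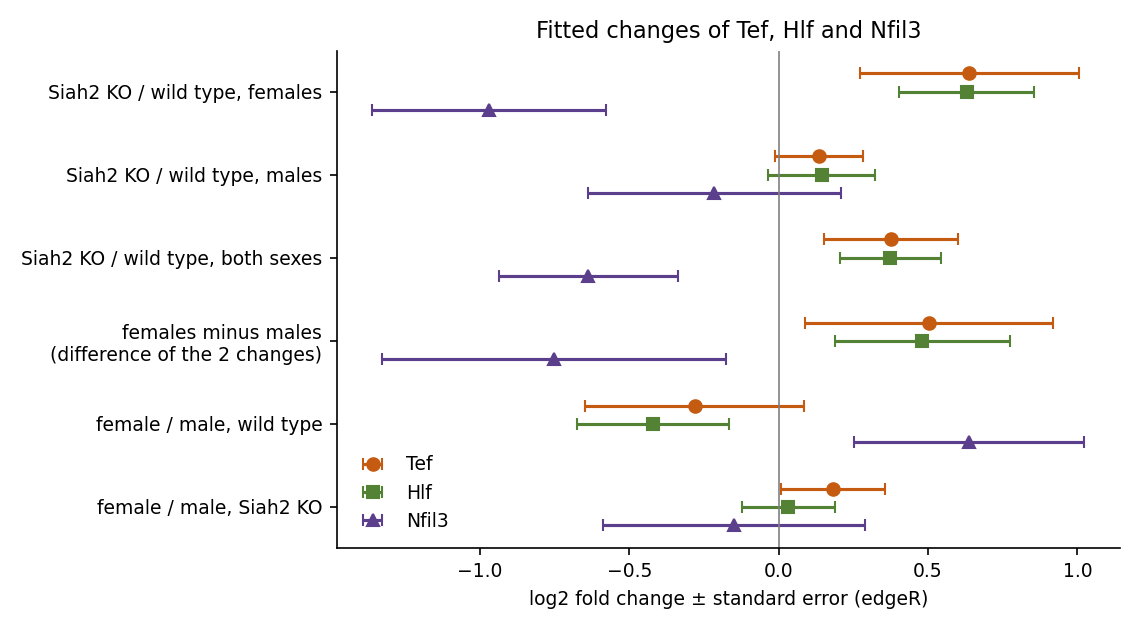
Log2 fold changes of Tef, Hlf and Nfil3 with their standard errors (horizontal bars) from edgeR in each of the 6 comparisons. In Siah2 KO against wild type females, Tef (0.64) and Hlf (0.63) lay above 0 and Nfil3 (−0.97) below, and in males the fitted values were 0.14, 0.14 and −0.22.

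**Figure D3:**
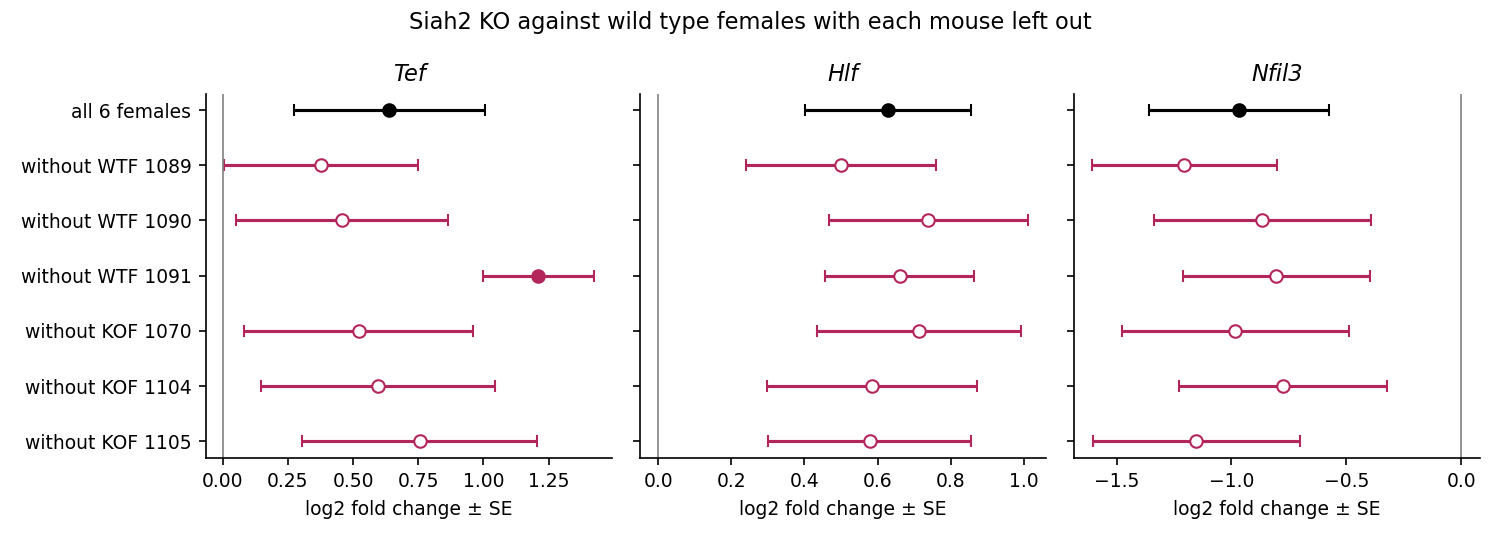
Log2 fold change with standard error of Tef, Hlf and Nfil3 in females, with all 6 mice (black) and with each mouse left out in turn (filled where the adjusted p was under 0.05, open where it was not). Tef without WTF 1091 is the filled point, at 1.21.

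Dbp, the best known of the PAR bZIP genes, had counts close to the limit of detection. It lies on the plus strand at chr7:45705100-45710203. Its level was 1.43, 0 and 0.317 CPM in WTF 1089, 1090 and 1091, from 5 reads in all, and 2.96, 2.57 and 2.99 CPM in KOF 1070, 1104 and 1105, from 23 reads. It was 2.28, 1.501 and 3.39 CPM in WTM 1055, 1086 and 1087, from 17 reads, and 1.13, 0 and 0.491 CPM in KOM 1075, 1076 and 1081, from 5 reads. Each Siah2 KO female was above each wild type female, and each Siah2 KO male below each wild type male, separations seen in either direction for 23.4% and 8.87% of the genes that passed the filter. The males separated by 3 reads in WTM 1086 against 3 in KOM 1075, which differ as CPM through the depth of the libraries. A count of 0 allows up to 0.895 CPM in WTF 1090 and 1.295 CPM in KOM 1076, which covers counting error only. The pattern of higher in females and lower in males without overlap was found for 0.347% of the 17874 genes with a read, and opposite separation of either kind for 0.828%.

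Because Dbp had too few reads for the filter, its fitted changes come from the fit without a filter. On the log2 scale they were 2.28 in females (standard error 0.92), with an unadjusted p of 0.0132 and an adjusted p of 0.214 by edgeR, and −2.05 in males (standard error 1.04), with an unadjusted p of 0.0477 and an adjusted p of 0.957. The female change less the male change was 4.33 (standard error 1.35), with an unadjusted p of 0.00131 and an adjusted p of 0.0641, and did not pass over all genes. DESeq2 gave 4.51 with an unadjusted p of 0.00221, and its filter left the gene without an adjusted p. The paper also measured Dbp by quantitative RT-PCR in livers collected around the day. It reports no detectable effect of SIAH2 loss on it in males, and higher peaks of several core clock genes in females.

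The reads of Dbp cannot be separated with certainty from those of its neighbour. Sphk2, which encodes a sphingosine kinase, runs on the opposite strand at chr7:45709463-45718002, and the ends of the genes overlap by 741 bases, or 14.5% of Dbp. In GENCODE M1 on NCBIM37, the last exon of Dbp is 491 bases long and lies wholly inside the last exon of 1 of 3 Sphk2 transcripts. The sources used here do not say whether strand was used in counting. Sphk2 averaged 102 CPM and was 86.8, 74.6 and 221 CPM in WTF 1089, 1090 and 1091 and 100.5, 109.6 and 102 CPM in KOF 1070, 1104 and 1105. Its log2 fold change was −0.31 in females and 0.085 in males (adjusted p of 0.755 and 0.9999 by edgeR), opposite in sign to those of Dbp. The part of this overlap in the low count of Dbp was not tested. Tef, Hlf and Nfil3 overlapped no other annotated gene.

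**Figure D4:**
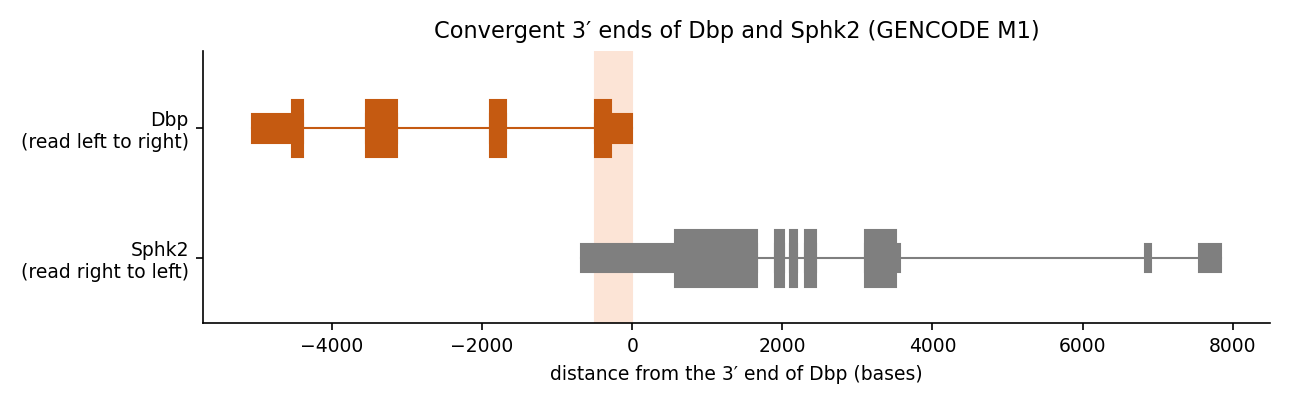
Exons (thin boxes) and coding parts (tall boxes) of Dbp and of the Sphk2 transcript that reaches it, by distance in bases from the 3′ end of Dbp (horizontal axis). The shaded last exon of Dbp, 491 bases, lies inside the last exon of Sphk2, 2345 bases.

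With the sexes combined, the 6 Siah2 KO mice were set against the 6 wild type mice. Hlf differed by 0.37 on the log2 scale (standard error 0.17), with an unadjusted p of 0.0401 and an adjusted p of 0.866 by edgeR. Tef differed by 0.38 (standard error 0.22, adjusted p = 0.869) and Nfil3 by −0.64 (standard error 0.30), with an unadjusted p of 0.0486 and an adjusted p of 0.869. The genotypes overlapped for each of the 4 members, and 0.2% of genes did not overlap. EdgeR called 0 of the 3 tested, against 0.0111% of all genes, and 2 of the 3 had an unadjusted p under 0.05, against 5.65%. Without WTF 1091 edgeR called 0 members and 0.0% of genes. DESeq2, which called 0.0056% of genes, and limma-voom called 0 members. For the difference between the sexes, edgeR called 0 of 3, against 0.255% of genes, 0 of 3 had an unadjusted p under 0.05, against 14.1%, and DESeq2, which called 1.45% of genes, and limma-voom called 0. Without WTF 1091 edgeR called 1 of 3, Tef, and 5.15% of genes.

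Females were also compared with males within each genotype. Wild type females had less Hlf and Tef and more Nfil3 than wild type males in the fit, with log2 differences (female minus male) of −0.42 (standard error 0.25), −0.28 (standard error 0.37) and 0.64 (standard error 0.39), and adjusted p of 0.472, 0.770 and 0.470 from edgeR. In Siah2 KO mice the same differences were 0.03, 0.18 and −0.15, with adjusted p of 0.925, 0.563 and 0.870. EdgeR called 0 of 3 members in either genotype, where it called 1.39% of all genes in wild type and 11.5% in Siah2 KO mice. At an unadjusted p under 0.05 there were also 0 of 3 members in either genotype, against 15.2% and 26.1% of genes. DESeq2 called 0, against 2.0% and 5.3% of genes, and limma-voom called 0. Without WTF 1091, Tef was lower in wild type females by a log2 difference of −0.88 (adjusted p = 0.0127 from edgeR), where 7.73% of genes were called. The comparisons share groups with those of genotype, so these values are not separate evidence. Dbp was lower in each wild type female than in each wild type male and higher in each Siah2 KO female than in each Siah2 KO male, separations seen in either direction for 22.7% and 30.7% of genes tested.

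Since activators and repressor meet at the same element, the summed CPM of Dbp, Tef and Hlf was divided by that of Nfil3 in each mouse, a ratio of read counts that no scaling of totals can change. It was 45.0, 31.9 and 52.1 in WTF 1089, 1090 and 1091, and 139, 189 and 86.1 in KOF 1070, 1104 and 1105. In males it was 92.2, 101 and 70.1 in WTM 1055, 1086 and 1087, and 224, 66.0 and 99.7 in KOM 1075, 1076 and 1081. The wild type females held the 3 lowest ratios of the 12 mice, WTF 1091 included, and the Siah2 KO females lay among the males. On the log2 scale the mean was 5.40 ± 0.36 (SD, n = 3 mice) in WTF, 7.03 ± 0.57 in KOF, 6.44 ± 0.28 in WTM and 6.83 ± 0.89 in KOM. Dbp added at most 3.39 CPM to the sum, which was therefore nearly that of Tef and Hlf. The divisor rested on 8 to 41 reads of Nfil3 per mouse, with 9 reads in KOM 1075, which had the highest ratio. The ratio is made from the values above, so it has no test of its own.

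Across the 12 mice, which come from 4 groups, the members were compared in pairs. Among the 6 pairs, the Pearson r of log2 CPM ran from −0.51 (Dbp and Nfil3) to 0.58 (Tef and Hlf). For Tef and Hlf, the permutation p of r was 0.0471 (0.281 after Benjamini-Hochberg adjustment over the 6 pairs), and Spearman's rho was 0.25 (permutation p = 0.429, adjusted 0.429). Without WTF 1090 and 1089, the mice farthest from the median of Tef, r was −0.09, so the relation rested on these females. Within the females r was 0.63 and within the males 0.34 (6 mice each), and between deviations from the group means it was 0.15. Within the females Dbp and Nfil3 had r = −0.87, and within the males Tef and Nfil3 had r = −0.89, against −0.06 and −0.29 in the other sex. These were the most extreme of the values within a sex, each over 6 mice of both genotypes and without a p. Between deviations from the group means over the 12 mice, r was −0.57 for Dbp and Nfil3 and 0.079 for Tef and Nfil3. For Hlf and Nfil3, r was −0.45 (permutation p = 0.143, adjusted 0.287) and rho −0.53 (permutation p = 0.0812, adjusted 0.366). The genes most like Tef over the 12 mice, among 6706 with at least 10 CPM on average, were Rxra, Cox5b and Gne, each with r = 0.95. Those most like Hlf were Esrra, Icmt and Plcb1, with r between 0.92 and 0.94, and those most like Nfil3 were Fam207a, Zfp191 and Cbx7, with r between 0.78 and 0.80. These correlations share the libraries and their scaling, and Tef ranked only 615 in likeness to Hlf.

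The clock genes that control the members were taken as a list of 15, of which 13 were tested in females. They include the activators Clock, Arntl and Npas2, the period and cryptochrome repressors, the DEC genes Bhlhe40 and Bhlhe41, Ciart and the REV-ERB genes. In females edgeR called 0 of the 13 and DESeq2 called 1, while 3 reached an unadjusted p under 0.05, all with more RNA in Siah2 KO mice. Over all genes the shares were 15.6% at that p and 1.76% by DESeq2. The 13 had a median log2 change of 0.31, against −0.03 for all genes tested, and 7 were above and 6 below 0. In males 0 of 13 had an unadjusted p under 0.05, DESeq2 called 0, and the median was −0.09, against −0.01. Without WTF 1091, edgeR called 2 of the list in females, where it called 9.64% of all genes.

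The gene called by DESeq2 was Per3, a period gene with D-boxes in its promoter. It was 11.1, 5.37 and 5.71 CPM in WTF 1089, 1090 and 1091, and 29.6, 46.9 and 34.1 CPM in KOF 1070, 1104 and 1105. The groups were far apart, and in males, at 6.85 to 13.6 CPM in the 6 mice, they overlapped. In females Per3 differed by 2.31 on the log2 scale (adjusted p = 0.0793 from edgeR, 2.2e-05 from DESeq2 and 0.00527 from edgeR without WTF 1091). Between Siah2 KO females and males, Per3 differed by 1.76 (adjusted p = 0.000968 from edgeR).

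The other regulators with an unadjusted p under 0.05 in females were Bhlhe41 and Per2. Bhlhe41, a repressor at E-boxes, was 4.77 ± 2.76 CPM (SD, n = 3 mice) in WTF and 13.03 ± 4.54 CPM in KOF, which is 1.44 on the log2 scale (adjusted p = 0.203 from edgeR). Per2, a core repressor of the clock, was 7.31 ± 1.18 and 12.9 ± 3.73 CPM, or 0.81 (adjusted p = 0.280). Arntl, which encodes BMAL1, had too few reads in females (7 over the 3 KOF) and a female change below the male change by −2.51 (standard error 1.02), with an unadjusted p of 0.0262 and an adjusted p of 0.270 by edgeR, and without WTM 1086 this was −3.83. Of 8 clock genes held to be under D-box control, all of them also in the list above, among them Per1, Per2, Per3, Cry1, Nr1d1 and Nr1d2, 4 had fitted values above 0 and 4 below in females, 2 of them with an unadjusted p under 0.05, against 15.6% of all genes. Nr1d1, the gene of REV-ERBα and a repressor of Nfil3, was at −0.79 on the log2 scale in females (standard error 0.53, adjusted p = 0.519) and 0.029 in males.

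Liver genes listed as lowered or altered in mice without Dbp, Tef and Hlf, or as bound at a D site, numbered 19. Of this list, 18 were tested in females. They include Nr1i3 (the nuclear receptor CAR), Por (the electron donor of cytochromes P450), Alas1, Cyp2a, Cyp2b and Cyp2c genes, Cyp7a1, acyl-CoA thioesterases and Cyp4a genes. In females edgeR called 0 of them and DESeq2 called 1, and 1 was higher and 1 lower at an unadjusted p under 0.05, where 1.76% of all genes were called by DESeq2 and 15.6% reached that p. Fitted values were above 0 for 11 and below 0 for 7, with a median of 0.12 against −0.03 for all genes. In males 14 were tested, 0 had an unadjusted p under 0.05, DESeq2 called 0, and the median was −0.17 against −0.01. Alas1, the rate-limiting enzyme of heme synthesis, was 91.0 ± 22.8 CPM (SD, n = 3 mice) in WTF and 187 ± 54.8 CPM in KOF, higher by 1.02 on the log2 scale (standard error 0.29, adjusted p = 0.142 from edgeR and 0.0367 from DESeq2). Cyp4a14, a fatty acid hydroxylase, was 6678 ± 3788 and 2760 ± 1341 CPM, a difference of −1.28 (adjusted p = 0.272), with overlap between the groups. In males the fitted values had the same signs, 0.47 for Alas1 and −0.63 for Cyp4a14 (adjusted p = 0.9999 for each from edgeR). A different response of the sexes was not shown for Alas1 or Cyp4a14 (adjusted p of 0.762 and 0.811 from edgeR).

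Several genes of the liver list, which holds cytochromes known for their sex bias, differed between the sexes. Female Siah2 KO mice had higher levels than male Siah2 KO mice for 9 of 18 genes by edgeR, and wild type females than wild type males for 3 of 18, with no gene lower in females in either, where edgeR called 11.5% and 1.39% of all genes. DESeq2 called 10 and 6 of the 18, and without WTF 1091 edgeR called 5 between wild type females and males. Cyp7a1, the rate-limiting enzyme of bile acid synthesis, was 331 ± 131 CPM in WTF, 534 ± 234 CPM in KOF, 148 ± 20.9 CPM in WTM and 112 ± 44.9 CPM in KOM. Its female to male log2 difference in Siah2 KO mice was 2.26 (adjusted p = 0.000219 from edgeR) and the difference between the sexes in response was 1.10, with an unadjusted p of 0.0443 and an adjusted p of 0.342. Cyp2b10, a drug-metabolizing enzyme, was 23.8 ± 10.8 CPM in WTF, 28.1 ± 10.0 CPM in KOF, 6.01 ± 2.76 CPM in WTM and 2.01 ± 0.890 CPM in KOM, with a female to male log2 difference of 3.76 in Siah2 KO mice (adjusted p = 1.56e-05).

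Of 4 C/EBP genes, the nearest relatives of the PAR family that bind related sites, edgeR called 0 in either sex, and DESeq2 called 0. Cebpb had an unadjusted p under 0.05 in females, with 104 ± 98.0 CPM (SD, n = 3 mice) in WTF and 330 ± 76.9 CPM in KOF, which is 1.65 on the log2 scale (standard error 0.70, adjusted p = 0.288 from edgeR). The value was 1.13 without WTF 1091 (adjusted p = 0.0486) and 2.64 without WTF 1090. In males it was 0.55 (adjusted p = 0.9999).

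**Figure D5:**
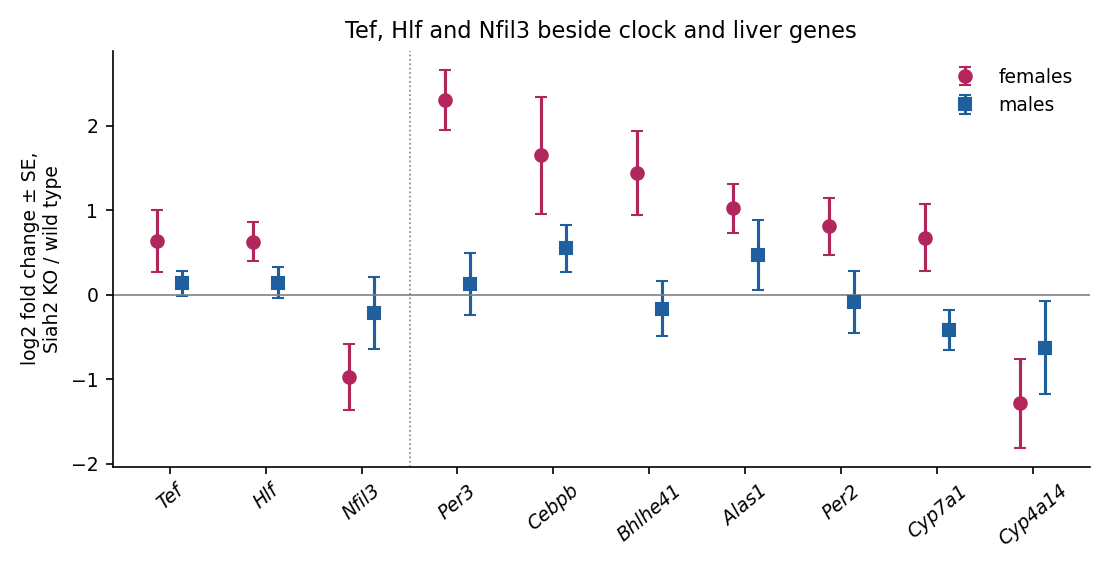
Log2 fold change of Siah2 KO against wild type with standard errors in females (circles) and males (squares), for Tef, Hlf and Nfil3 (left of the dotted line) and for the clock and liver genes shown, which had an unadjusted p under 0.05 in females or for the difference between the sexes. These genes were picked for that p, and Per3 in females, at 2.31, is the highest.

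Other cell types and these genes were looked at together, since in bulk liver fewer cells of a type and less RNA per cell cannot be told apart. The summed level of 8 immune markers, all with reads, was 396 to 550 CPM in WTF, 325 to 825 CPM in KOF, 68.4 to 575 CPM in WTM and 92.6 to 190 CPM in KOM. The 4 stellate cell markers summed to 172 to 351 CPM in WTF and 162 to 212 CPM in KOF, and the 4 endothelial markers to 194 to 297 CPM, highest in WTF 1091, and 172 to 188 CPM. The 5 hepatocyte markers summed to 24713 to 36843 CPM in WTF and 23445 to 30075 CPM in KOF. The groups of females overlapped for immune, stellate and hepatocyte markers, and the endothelial markers were lower in each Siah2 KO than in each wild type female. The fat markers summed to 58.0 to 109.9 CPM in KOF against 47.3 to 54.1 CPM in WTF. Adipoq and Plin1 had no reads in either group of females, so this sum came from Fabp4 and Lep alone. Among single genes tested in females, 23.4% separated the genotypes without overlap in either direction. Of 7 red blood cell markers, 5 were listed and 1 had reads, at 8.43 to 25.1 CPM in females and 83.6 to 154 CPM in males. The part of these differences in the levels of Hlf, Tef and Nfil3 was not tested.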

How the data were processed

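Liver RNA of 12 mice was profiled with the Lexogen QuantSeq 3′ kit. The authors mapped and counted the reads and deposited raw read counts per gene, in 1 table per sex. The submitters' processing notes name STAR, DESeq and mm10, without versions or roles, and the sources used here do not say whether strand was used in counting. Totals were between 1293688 and 4056144 counts per mouse, of which Rn45s took 5.68% to 17.9%. Of the symbols, 27 had been turned into dates and are not named. The paper describes no molecular identifiers on the reads, so limits from counts cover counting error only.

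Each comparison was fitted over all genes with edgeR 4.0.16 in R 4.3.3 (filterByExpr, TMM, quasi-likelihood F test, two-sided, Benjamini-Hochberg, threshold 0.05). Genotypes were compared in females, in males, in both sexes and for the difference between the sexes, and the sexes within each genotype. Alternatives were DESeq2 1.42.0, limma-voom with and without quality weights (limma 3.58.1), RLE scaling, no filter beyond 1 count, totals without Rn45s, 1 fit of all 12 mice, adding sex as a term, and leaving out each mouse in turn. The main script was tested on simulated data. Log2 CPM used a prior count of 3. Correlations used 100000 permutations in Python 3.11.15 with scipy 1.17.1, pandas 2.3.3 and numpy 2.4.6, and figures used matplotlib 3.10.9. Gene positions and promoters came from RefSeq on GRCm38, and exon distances at Dbp from GENCODE M1 on NCBIM37.

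The members and the lists were chosen with earlier results of these data known. From each list, genes with an unadjusted p under 0.05 in females, in males or for the difference between the sexes were named, at most 4 by smallest p, and so were the 3 genes most correlated with each member, genes overlapping a member, and Siah2. Some genes of the lists enter as counts and are not reported here individually. Nr1d1 was named after its values were seen. For Ciart the older symbol Gm129 was used. Protein sequences were not used here.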

Additional observations from a re-analysis of the deposited data

Results flagged for a closer look

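Dbp stood out because each Siah2 KO female had more of it than each wild type female while each Siah2 KO male had less than each wild type male. The female change less the male change was 4.33 on the log2 scale (standard error 1.35, adjusted p = 0.0641 from edgeR without a filter on low counts), so the difference did not pass over all genes. It rests on 50 reads in 12 mice, 5 of them in WTF and 5 in KOM, and 148 of 17874 genes with a read, or 0.828%, separated in opposite directions in females and males.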

How the results depend on the processing

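No paired analysis was possible because the mouse numbers are not shared between groups. The number of members called by edgeR was 0 in each of the 6 comparisons, and it stayed 0 in males, in both sexes and between the sexes of Siah2 KO mice under each alternative run. With voom quality weights it was 2 in females (Hlf and Tef), 1 for the difference between the sexes (Tef) and 1 for the sex difference of wild type mice (Tef). With each mouse left out in turn it ranged from 0 to 1 in these 3 comparisons, the 1 being Tef without WTF 1091. Over the mice left out, the log2 fold change in females ran from 0.38 to 1.21 for Tef, from 0.50 to 0.74 for Hlf and from −1.20 to −0.78 for Nfil3.

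Some signs turned, and the cause was not tested. Over the mice left out in males, Hlf ran from −0.0010 (without WTM 1055) to 0.28 and Nfil3 from −0.54 to 0.080 (without KOM 1075, and 0.021 without WTM 1087). Between Siah2 KO females and males, Hlf ran from −0.056 (without KOM 1081) to 0.12, with −0.0091 without KOF 1104 and −0.012 without KOF 1105, and Nfil3 from −0.44 to 0.18 (without KOM 1076, and 0.045 without KOF 1104). Cyp2b10 in females was −0.066 with quality weights and ran from −0.097 (without KOF 1105) to 0.61, with −0.069 without WTF 1091. The difference between the sexes of Alas1, 0.54 with all mice, ran from −0.49 (without WTM 1086) to 0.94. Over all genes, calls in females were 0 by edgeR, 303 by DESeq2 and 936 by edgeR without WTF 1091. Dbp had the fewest reads of the members, then Nfil3, and the cause of the low count of Dbp was not tested.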
